A study of Mus musculus with 2 samples.

Results

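Imprinted genes, which are read mainly from the copy inherited from the mother or mainly from that of the father, were examined in cultured mouse keratinocytes. The set holds 40 genes, chosen by name with earlier results of these arrays in view, the signal ratios between the 2 arrays among them. They comprise 22 genes usually expressed from the paternal copy, 17 from the maternal copy, and Gnas, whose parental origin depends on the transcript. A probe set, the array's short probes to a transcript read together as 1 signal, was used where the platform annotation gave it a single gene symbol. On this basis 38 of the 40 genes had a probe set, 104 in all, among 18193 genes and 45101 probe sets on the array. The material was primary keratinocytes grown from newborn C57BL/6 epidermis, for which the labels name no sort. The control culture came from mice titled MED1flox/flox and described as wild-type. The other came from MED1epi-/- mice, in which K5Cre, a Cre recombinase under the keratin 5 promoter, was combined with a floxed MED1 gene. That promoter is active in basal keratinocytes, and the labels call the loss keratinocyte-specific. MED1 is a subunit of Mediator, which links transcription factors to RNA polymerase II. Each group was 1 Affymetrix array, so no test between groups was possible and no spread between cultures could be measured.

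Imprinting rests on DNA methylation laid down in the germ line at control regions, which afterwards keeps the maternal and paternal copies of nearby genes in different states. Imprinted genes therefore lie in clusters, often with a long non-coding RNA expressed from the opposite copy to its protein-coding neighbours. Many paternally expressed genes, Igf2 among them, favour growth before and around birth, and several maternally expressed genes, such as Igf2r, Grb10, Cdkn1c and Phlda2, restrain it. For some of the genes, such as Ube3a and Calcr, imprinting is known mainly from the brain. The array adds both parental copies together, so none of the values below say which copy was read.

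Values are given as control array first and array labelled MED1-null second, in MAS5 signal, a linear intensity that the authors' software scaled per array. A floor of 67.7, the median of all probe sets over both arrays, replaced lower signals, and log2 ratios of MED1-null over control were then taken. A gene counts as measured where the probe set with its highest mean signal reached the floor on either array. The sole spread available was that between probe sets of a gene, a pooled SD of 0.31 log2 units (1.24-fold) over 4916 genes. Med1 itself read 462.7 and 1038.7, higher on the array labelled MED1-null. Which part of Med1 was deleted is not in the labels, and probes elsewhere in the gene check nothing, so the array is named by its label throughout. Xist, the RNA of the inactive X chromosome, read 5461.1 and 55.7, while the Y-linked Eif2s3y read 4.2 and 2163.6. Sex-linked transcripts thus differed along with the label, and genotype, sex and culture cannot be told apart in any ratio below.

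Of the 38 genes with a probe set, 24 were measured, 21 of them on both arrays. On the array labelled MED1-null, Igf2 and Mest were higher by 2-fold or more and Peg3 and Plagl1 lower by as much. The other 20 lay within 2-fold by floored signals, 3 of them by a lower bound only. All 4 genes are of the paternally expressed class. Across the array, 3.86% of 11621 measured genes were at least 2-fold apart, 1.63% higher and 2.23% lower. The genes were listed with these ratios known, so the 4 of 24 is a description of the list beside that background. Over the 24 genes, 13 had a log2 ratio above 0 and 11 below. Their median was 0.01, against 0.06 over all measured genes, and their mean was -0.02. Across other floors, scalings and probe set choices the median lay between -0.07 and 0.11. The 12 measured paternally expressed genes ran from -1.44 to 2.26, with 4 above 0 and 8 below and a median of -0.20. Their median became 0.03 with the floor at the 25th percentile and 0.09 with no floor, so its direction depended on the floor. The 11 measured maternally expressed genes ran from -0.63 to 0.50, with 8 above 0 and 3 below, a median of 0.09 and none beyond 2-fold. Of these 11, Rian and Ppp1r9a passed 2-fold once the 25th percentile served as floor, at 1.84 and 1.92, and with no floor Ppp1r9a was at 4.83. The maternal median lay between 0.09 and 0.24 over the settings tried. The difference between the classes has no replicate check and was not tested.

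**Figure D1:**
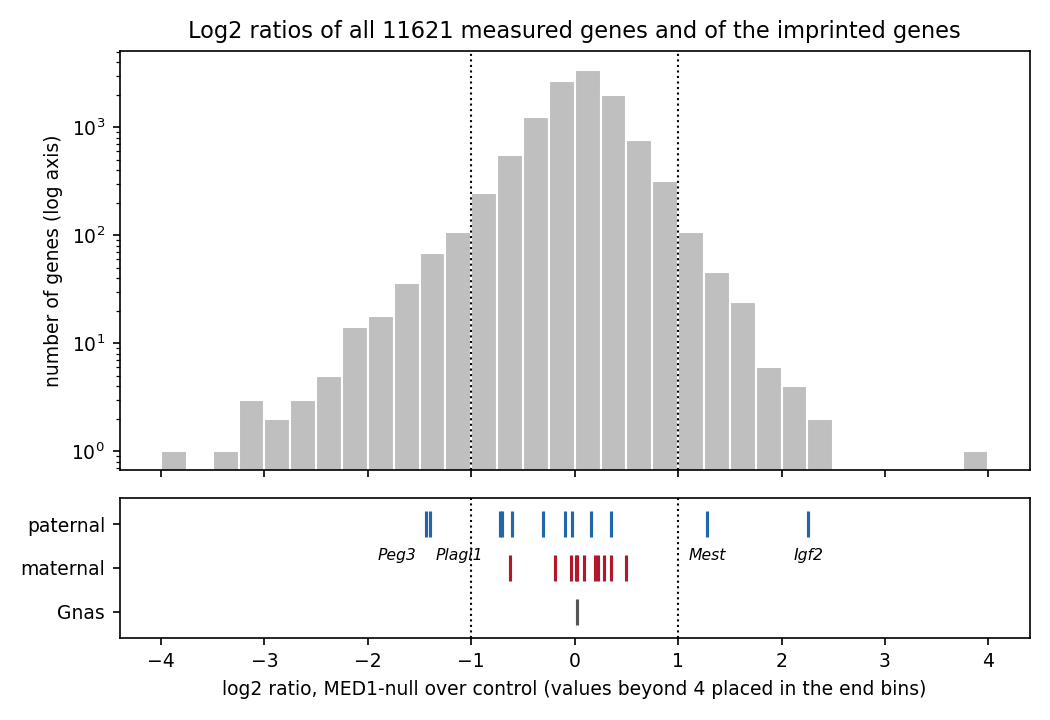
Upper panel, number of genes (log axis) by log2 ratio of the array labelled MED1-null over the control array, for all 11621 measured genes; lower panel, 1 tick per measured imprinted gene by class, with dotted lines at 2-fold. Paternally expressed genes lie at both sides of the dotted lines, with Igf2 at 2.26 and Peg3 at -1.44, and the maternally expressed genes lie between -0.63 and 0.50.

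The gene with the highest ratio of the set was Igf2, which encodes insulin-like growth factor 2, a secreted growth factor of the fetus and newborn. Its signal was 147.1 in the control culture and 703.8 in the culture labelled MED1-null, a log2 ratio of 2.26 (4.78-fold). This ratio ranked 3 from the top among the measured genes. The value rests on 1 probe set: the other Igf2 probe set read 2.3 and 4.2, below the floor on both arrays. Igf2 lies in the second of 4 equal groups of the measured genes ordered by mean signal, where 4.27% of genes were at least 2-fold apart. With the floor at the 75th percentile, 434.6, its control signal was raised to the floor, and the log2 ratio was 0.70.

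Mest, an enzyme of the alpha/beta hydrolase family made in embryonic mesoderm and growing fat, read 446.8 and 1088.0. The log2 ratio was 1.28 (2.44-fold), from the single Mest probe set. It ranked 71 from the top. Copg2, a coat protein gene of Golgi vesicles that lies beside Mest on the opposite strand, read 1735.1 and 2107.9 (1.21-fold higher). The Mest signal was thus further apart between the arrays than that of its cluster partner.

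Peg3, a zinc finger transcription factor linked to maternal behaviour and to control of cell survival, read 2252.8 and 829.2 by its brightest probe set, a log2 ratio of -1.44 (2.72-fold lower). The other 2 probe sets above the floor read 1924.6 and 613.1, and 588.2 and 249.0. All 3 were lower by more than 2-fold in the culture labelled MED1-null, with log2 ratios from -1.65 to -1.24, and the remaining 2 of the 5 Peg3 probe sets lay below the floor. Peg3 ranked 92 from the bottom. In its cluster, the zinc finger gene Zim1 (19.6 and 39.1) and the deubiquitinase-family gene Usp29 (7.4 and 14.6) were below the floor on both arrays, so Peg3 has no measured partner.

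Plagl1, also called Zac1, is a zinc finger transcription factor that restrains the cell cycle and regulates other imprinted genes. It read 5108.7 and 1931.7, a log2 ratio of -1.40 (2.64-fold lower), and ranked 106 from the bottom. The probe set used has the suffix that marks sequence shared with other transcripts. A second probe set without that suffix read 181.7 and 9.5, at least 2.68-fold lower against the floor, and the third was below the floor on both arrays. Peg3 and Mest lie in the third of these signal groups, where 2.24% of genes were at least 2-fold apart, and Plagl1 in the highest, where 2.86% were. Fewer cells of a type and less RNA per cell cannot be told apart in such whole-culture signals.

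**Figure D2:**
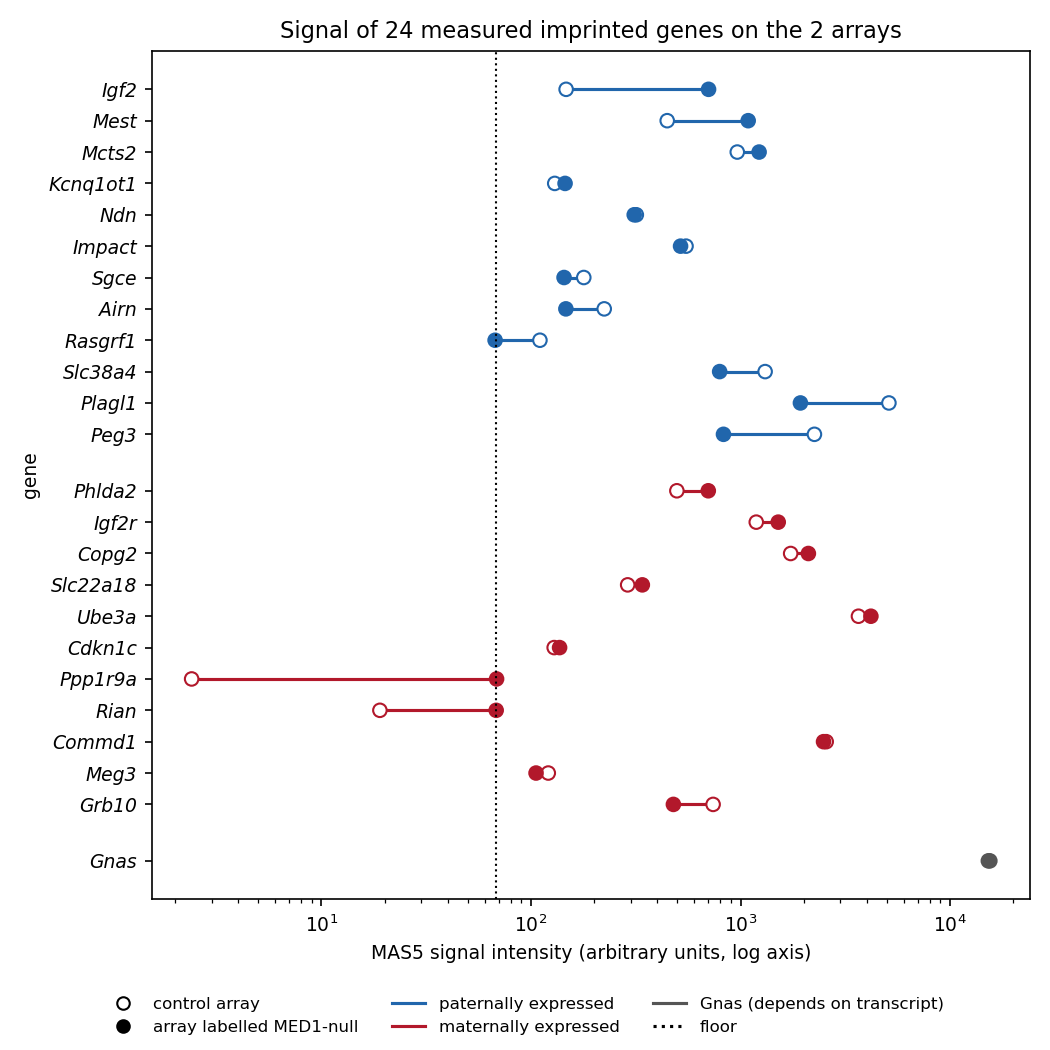
MAS5 signal (log axis, arbitrary units) of the 24 measured imprinted genes, open circles for the control array and filled circles for the array labelled MED1-null, each array a single sample; the dotted line is the floor of 67.7. The widest gaps above the floor are those of Igf2 (147.1 to 703.8), Peg3 (2252.8 to 829.2), Plagl1 (5108.7 to 1931.7) and Mest (446.8 to 1088.0), while Rian and Ppp1r9a only touch the floor on 1 array.

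The start regions of these 4 genes, the ones at least 2-fold apart, are shown for their sequence, and no ratio above depends on them. Each is the 250 bases upstream of a RefSeq transcription start (assembly GRCm38.p6), read 5′ to 3′ along the gene's strand. CpG dinucleotides, the sites of DNA methylation, are in capitals. Igf2 has 4 start regions in the table and Mest 3, and the region with the most CpGs is printed. The arrays measured neither methylation nor which start was used.
Igf2, chr7:142658805-142659054, minus strand: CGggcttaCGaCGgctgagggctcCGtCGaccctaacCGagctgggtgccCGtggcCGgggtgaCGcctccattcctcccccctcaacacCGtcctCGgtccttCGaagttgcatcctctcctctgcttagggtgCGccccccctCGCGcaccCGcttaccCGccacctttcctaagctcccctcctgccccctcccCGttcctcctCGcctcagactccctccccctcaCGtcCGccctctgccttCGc
Mest, chr6:30737800-30738049, plus strand: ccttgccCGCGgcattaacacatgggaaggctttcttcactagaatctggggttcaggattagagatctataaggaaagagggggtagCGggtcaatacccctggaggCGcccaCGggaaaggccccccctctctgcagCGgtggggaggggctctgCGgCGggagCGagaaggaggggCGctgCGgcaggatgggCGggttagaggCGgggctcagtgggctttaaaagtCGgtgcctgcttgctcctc
Peg3, chr7:6730420-6730669, minus strand: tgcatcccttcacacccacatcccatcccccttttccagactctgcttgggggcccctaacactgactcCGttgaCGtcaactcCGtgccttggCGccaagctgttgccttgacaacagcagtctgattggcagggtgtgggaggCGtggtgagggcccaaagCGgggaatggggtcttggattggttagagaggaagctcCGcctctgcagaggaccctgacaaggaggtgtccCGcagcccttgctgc
Plagl1, chr10:13090582-13090831, plus strand: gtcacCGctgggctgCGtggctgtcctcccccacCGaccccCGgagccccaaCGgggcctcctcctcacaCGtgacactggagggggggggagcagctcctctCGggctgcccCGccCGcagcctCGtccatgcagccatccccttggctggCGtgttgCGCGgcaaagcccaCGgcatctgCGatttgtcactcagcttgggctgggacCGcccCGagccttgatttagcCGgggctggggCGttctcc

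The printed Igf2 region holds 22 CpGs, that of Plagl1 19, that of Mest 14 and that of Peg3 8, and the median over 32851 such regions was 6. The Igf2 and Mest regions were picked for their CpGs, so their counts cannot be set against that median: the other Igf2 regions hold 10, 6 and 1, and the other Mest regions 14 and 7. The table held 54 regions for 34 of the 40 genes, with a median of 8.0 CpGs and a range from 0 to 40. The window of Peg3, taken as 250 bases before to 50 after its start, shares 263 of its 300 bases with that of Usp29 on the opposite strand, so these genes start head to head. Of that pair only Peg3 reached the floor. Both strands of the 250 bases were searched for TGCCGC, the hexamer bound when methylated by ZFP57, a protein that maintains imprints. It was present in 9 of the 54 regions (16.7%) and in 8.68% of all regions, and those of Mest and Plagl1 were among the 9. Regions of 1 gene can overlap, so the 54 are not independent. The Mest regions starting at 30737800 and 30737803 share most of their bases, and both are counted in the 9. GGGGCCCC, the core of the sequence bound by Plagl1, was present in 3 of the 54 (5.56%) and in 0.889% of all regions. The Peg3 region was among these 3. Such matches describe the letters and are no evidence of binding.

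The other 8 measured paternally expressed genes lay within 2-fold. Slc38a4, an amino acid transporter gene, read 1310.6 and 795.1 (1.65-fold lower), and its second probe set 730.4 and 602.4. Rasgrf1, an exchange factor for Ras, read 110.3 and 67.4, just under the floor, at least 1.63-fold lower. Airn, the non-coding RNA that runs antisense to Igf2r, read 223.6 and 146.7 (1.52-fold lower), but its other probe set above the floor had a log2 ratio of 0.03. These 3 were the remaining paternally expressed genes at least 1.5-fold apart. Of the 12 measured, 2 were higher and 5 lower by 1.5-fold or more, beside 15.1% of all measured genes in either direction. The list was chosen with ratios known, so this count is a description.

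Smaller differences came from the rest of this class. Sgce, which encodes epsilon-sarcoglycan, read 178.6 and 143.8 (1.24-fold lower). Impact, which counters activation of the amino acid sensor kinase GCN2, read 549.5 and 517.4. Ndn encodes necdin, a growth suppressor of the MAGE family, and read 318.2 and 310.9 by its brightest probe set. The 5 Ndn probe sets above the floor ran from -0.03 to 0.82 in log2 ratio, 4 of them above 0, so the direction depended on the probe set. Mcts2, a retrogene copy of a translation factor gene, read 964.9 and 1226.6 (1.27-fold higher). Kcnq1ot1, the long antisense RNA that silences its cluster on the paternal chromosome, read 129.8 and 145.4, and its second probe set above the floor 82.4 and 141.3.

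Among maternally expressed genes, the largest difference was that of Grb10, an adaptor that dampens insulin and IGF receptor signalling. Grb10 read 739.9 and 478.2, a log2 ratio of -0.63 (1.55-fold lower). Its other probe sets read 192.5 and 121.2, and 126.1 and 80.1. All 3 were lower to a like degree, from -0.67 to -0.63, and Grb10 was the sole gene of the class at least 1.5-fold apart, where 15.1% of all measured genes were.

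Phlda2, which limits placental growth, read 496.8 and 701.7 (1.41-fold higher). Igf2r, the receptor that takes IGF2 to lysosomes for breakdown, read 1188.9 and 1513.6 (1.27-fold higher), and its second probe set 690.7 and 730.8. Slc22a18, a membrane transporter gene, read 289.3 and 339.9, and Cdkn1c, the cyclin-dependent kinase inhibitor p57, read 129.0 and 136.9. The Cdkn1c log2 ratio of 0.09 became -0.05 after removal of a lowess curve. The ubiquitin ligase gene Ube3a read 3655.6 and 4190.3, but its 5 probe sets above the floor ran from -0.63 to 0.80. Commd1, a copper transport regulator, read 2564.5 and 2490.2.

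The maternally expressed non-coding RNAs of the Dlk1-Meg3 cluster were faint. Meg3 had 11 probe sets, of which the brightest read 120.9 and 105.7 and a second reached the floor on 1 array (38.1 and 94.3), with opposite directions. Rian, a host of small nucleolar RNAs, read 68.2 on the array labelled MED1-null and less than the floor in the control, and Ppp1r9a, which encodes the actin-binding neurabin, read 2.4 and 68.5. Both reached the floor by less than 1 unit on 1 array alone, so their bounds are near 1-fold. The larger ratios given above came from lower floors, of 18.1 at the 25th percentile. Gnas, the stimulatory G protein subunit, had 15238.5 and 15488.2 (1.02-fold, and a log2 ratio of -0.04 with the median ratio of the arrays set to 0), with a second probe set at 97.6 and 106.0.

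**Figure D3:**
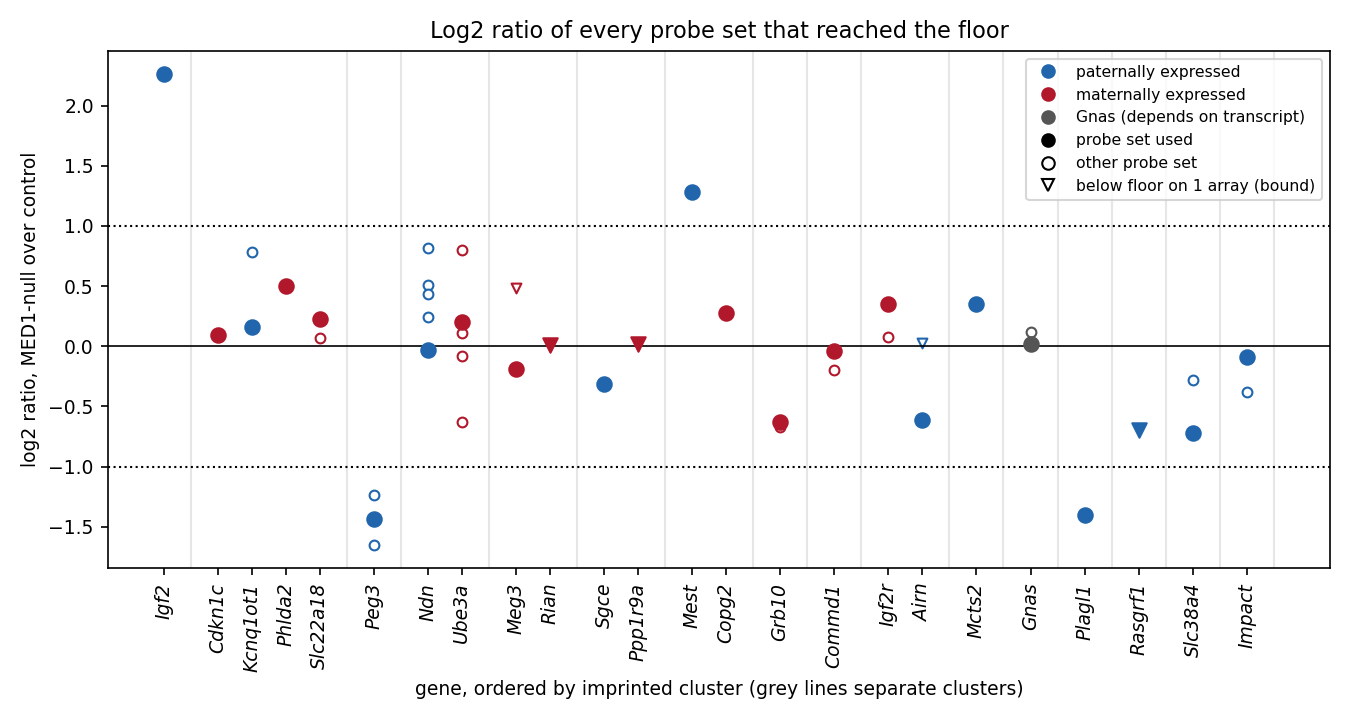
Log2 ratio of the array labelled MED1-null over the control array for every probe set that reached the floor, by gene and imprinted cluster; large filled symbols mark the probe set used, open symbols the others, triangles those below the floor on 1 array, dotted lines 2-fold. The 3 Peg3 probe sets lie from -1.65 to -1.24 and the 3 Grb10 probe sets overlap near -0.63, whereas those of Ube3a run from -0.63 to 0.80.

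Among 14 measured genes with several probe sets above the floor, the probe sets agreed in direction for 10. The 4 with both directions were Airn, Meg3, Ndn and Ube3a. By cluster, the 4 measured genes of the Kcnq1ot1 cluster on chromosome 7, maternally and paternally expressed alike, had log2 ratios from 0.09 to 0.50. In the Igf2r cluster on chromosome 17, Igf2r and its antisense RNA Airn read in opposite directions by their brightest probe sets, at 0.35 and -0.61. Their other probe sets above the floor were both close to 0, at 0.08 and 0.03. By probe sets with a single symbol, the Snrpn-Ube3a cluster on chromosome 7 had 2 measured genes, Ndn and Ube3a, at -0.03 and 0.20. The Mest cluster on chromosome 6 had both its genes above 0, at 1.28 for Mest and 0.28 for Copg2.

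The 14 genes with a probe set that were below the floor on both arrays have no order or ratio here. Closest to the floor were Dlk1, a Notch-like membrane protein gene (32.3 and 63.2), and Magel2, a MAGE family gene (56.0 and 59.6). Snrpn, a splicing protein gene (16.1 and 54.9 by its single-symbol probe set), Nnat, which encodes neuronatin (3.3 and 41.1), Zim1 and the calcitonin receptor gene Calcr (33.8 and 31.7) lay lower. Also below it were Kcnq1, a potassium channel gene, Ascl2, a transcription factor of the placenta, the retrotransposon-derived Peg10, Peg12, Usp29, Asb4, Nap1l5 and Ddc, which encodes dopa decarboxylase. H19 and Zrsr1 had no probe set with a single symbol and were not analysed as genes. Left out for their several symbols were 4 probe sets of Snurf and Snrpn that reached the floor, the brightest at 1665.4 and 1719.2. A probe set of H19 and Mir675 also reached the floor, and all of these are given with the flagged results below.

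Genes beside the clusters were taken as the 5 nearest protein-coding genes on each side in RefSeq that are on no imprinted list here. Of 93 measured neighbours, 3 were 2-fold or more higher, none lower and 90 within 2-fold, with a median log2 ratio of 0.09, close to the 0.06 of all genes. The 3 of 93 is near the 3.86% of all measured genes, so the count does not set the neighbours apart. The 3 were Tnni2, a fast muscle troponin gene near Igf2 (16.4 and 188.9, at least 2.79-fold), and Podxl (69.8 and 159.4) and Cep41 (184.5 and 371.6, 2.01-fold), which flank the Mest cluster. Cpa4, also beside Mest, read 16004.7 and 9039.5, in the opposite direction. It was named for its place after its value was seen.

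A further list of 51 imprinted genes or candidates had 27 measured, with 10 above 0 and 17 below and a median of -0.21. Herc3 was lower by more than 2-fold and no gene was 2-fold higher. Herc3, a ubiquitin ligase gene that hosts Nap1l5 in an intron, read 162.3 and 71.6 (2.27-fold). Cobl, an actin nucleator gene next to Grb10, read 1917.1 and 982.6 (1.95-fold lower). Dcn (118.1 and 35.2) and the transcription factor gene Klf14 (112.1 and 53.4) were at least 1.74-fold and 1.66-fold lower. Dcn, which encodes the matrix protein decorin, is also on the fibroblast marker list below.

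A list of imprint regulators had 25 measured genes. It holds genes that set, copy or guard imprints, and also genes for removal of DNA methylation and for chromatin in general. By floored signals none was 2-fold apart, 19 lay above 0 and 6 below, and the median was 0.20. Of all 11621 measured genes, 6632 lay above 0 and 4984 below, with a median of 0.06. The 3 of 25 beyond 1.5-fold, Cbx5, Dnmt1 and Ehmt1, stand beside 15.1% of all measured genes, so their number does not set the list apart. Cbx5, heterochromatin protein HP1 alpha, read 528.9 and 922.9 (1.74-fold higher). Dnmt1, which copies DNA methylation at replication, read 598.4 and 993.8 (1.66-fold higher), and its partner Uhrf1 413.0 and 575.2 (1.39-fold higher). Ehmt1, a histone H3 methyltransferase, read 757.5 and 1199.0 (1.58-fold higher).

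The IGF axis around Igf2 and Igf2r had 12 measured genes, 1 higher and 3 lower by 2-fold or more, with a median of -0.13. Over all measured genes, 1.63% were higher and 2.23% lower by as much. The binding protein gene Igfbp4 was higher (567.0 and 1148.5, 2.03-fold). Igfbp2 (1439.9 and 676.4), Igfbp7 (14928.2 and 7098.2) and Igfbp5 (182.2 and 61.5, at least 2.69-fold) were lower. These genes encode secreted proteins that bind IGFs, or in the case of Igfbp7 are related to such proteins. Igf1r, the receptor that passes on the IGF2 signal, read 1812.4 and 1831.5 and was named for its role after its value was seen.

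**Figure D4:**
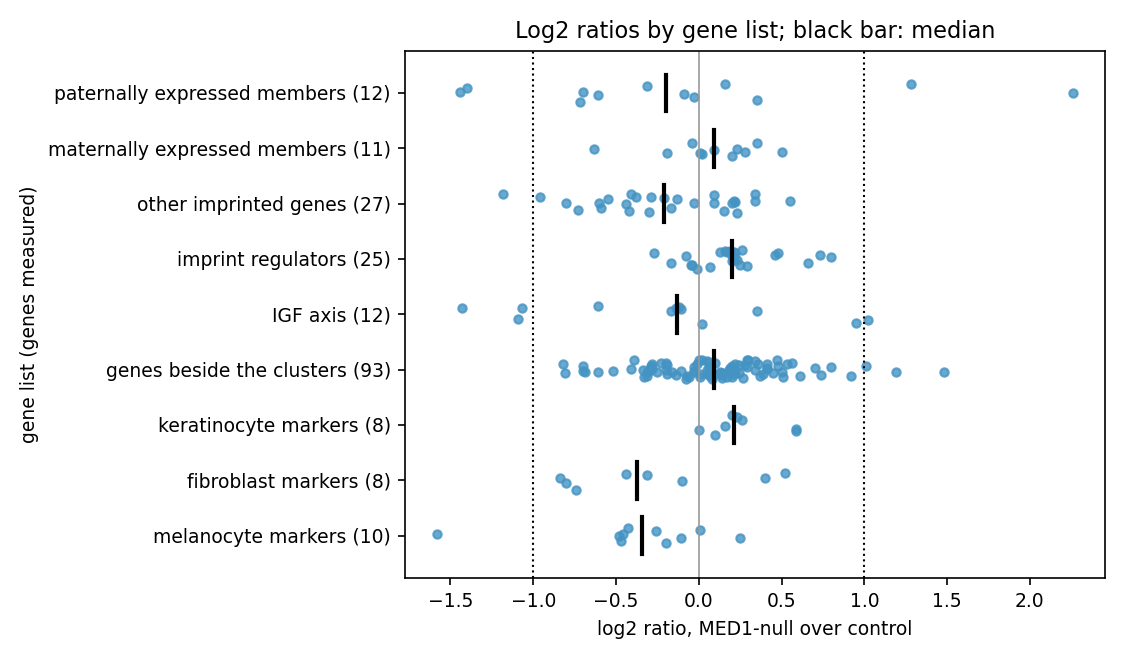
Log2 ratio of the array labelled MED1-null over the control array, 1 point per measured gene, by list, with a black bar at the median and dotted lines at 2-fold; vertical scatter within a list has no meaning. The paternally expressed genes spread from -1.44 to 2.26 and the maternally expressed genes from -0.63 to 0.50. By floored signals, 90 of 93 genes beside the clusters lie within 2-fold, some of them by a lower bound only.

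Cell type markers were compared because several imprinted genes are known from mesenchymal cells. All 8 measured keratinocyte markers were within 2-fold. The farthest apart were Trp63 (7797.9 and 11735.6) and Col17a1 (12384.5 and 18599.4), both with a log2 ratio of 0.59. The basal keratin genes read 32904.7 and 36849.0 for Krt14 and 26821.4 and 32219.6 for Krt5, and the summed signal of the list was 152810 and 178598. Of 14 fibroblast markers, 8 reached the floor in the control culture and 4 in the culture labelled MED1-null. Their summed signal was 1096 and 817. Col1a1, the main fibroblast collagen gene, and Lum were below the floor on both arrays. Of the 8 measured, 6 had log2 ratios below 0 and 2 above, with a median of -0.37. Col3a1 (120.8 and 35.5), Twist2 (112.9 and 36.0) and Dcn, given above, were at least 1.67-fold lower. The collagen genes Col1a2 (80.3 and 115.3, 1.44-fold) and Col6a3 (80.3 and 105.6, 1.32-fold) were higher. All 10 melanocyte markers reached the floor on the control array and 9 on the other, with sums of 25684 and 20005, and 8 of the 10 log2 ratios were below 0 and 2 above. Kit, a growth factor receptor of this lineage, read 409.5 and 136.8, whereas the pigment enzyme gene Tyr read 626.6 and 746.8 and the transcription factor gene Sox10 259.9 and 261.3. Of 8 markers each, endothelial cells had 2 and 0 at the floor on the control and labelled arrays, immune cells 3 and 2, and skeletal muscle 2 and 2. Their summed signals were 336 and 296 for endothelial cells, 445 and 511 for immune cells and 441 and 537 for skeletal muscle. Schwann cell and adipocyte lists had 4 genes each with a probe set, and 1 gene made up most of each sum. The Schwann cell sum was 3155 and 1987, of which Mbp gave 2970.8 and 1918.0, and the adipocyte sum 2966 and 1260, of which Lipe gave 2880.6 and 1143.2. Of the more specific adipocyte genes, Adipoq and Lep were below the floor on both arrays and Fabp4 read 76.2 and 103.5, so these sums do not describe the cell types. By summed signal, melanocyte markers read lower on the array labelled MED1-null, in the direction of Peg3 and Plagl1. The fibroblast sum was lower too, but only 4 of 14 markers reached the floor on that array. Col3a1, Twist2 and Dcn read below it there, so the fibroblast sum gives no firm direction. Keratinocyte markers read higher, in the direction of Igf2 and Mest. Most endothelial, immune and skeletal muscle markers lay below the floor, so their sums give no direction. The largest part of the skeletal muscle sum was Acta1 (202.6 and 325.6), and of the immune sum Csf1r (164.0 and 228.9). The immune median of 0.22 became -0.09 by the median over probe sets. That of skeletal muscle, 0.32, became -0.26 with the floor at the 25th percentile. Single markers of the fibroblast and melanocyte lists ran both ways, and the part of any of these cell types in the ratios was not tested.

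**Figure D5:**
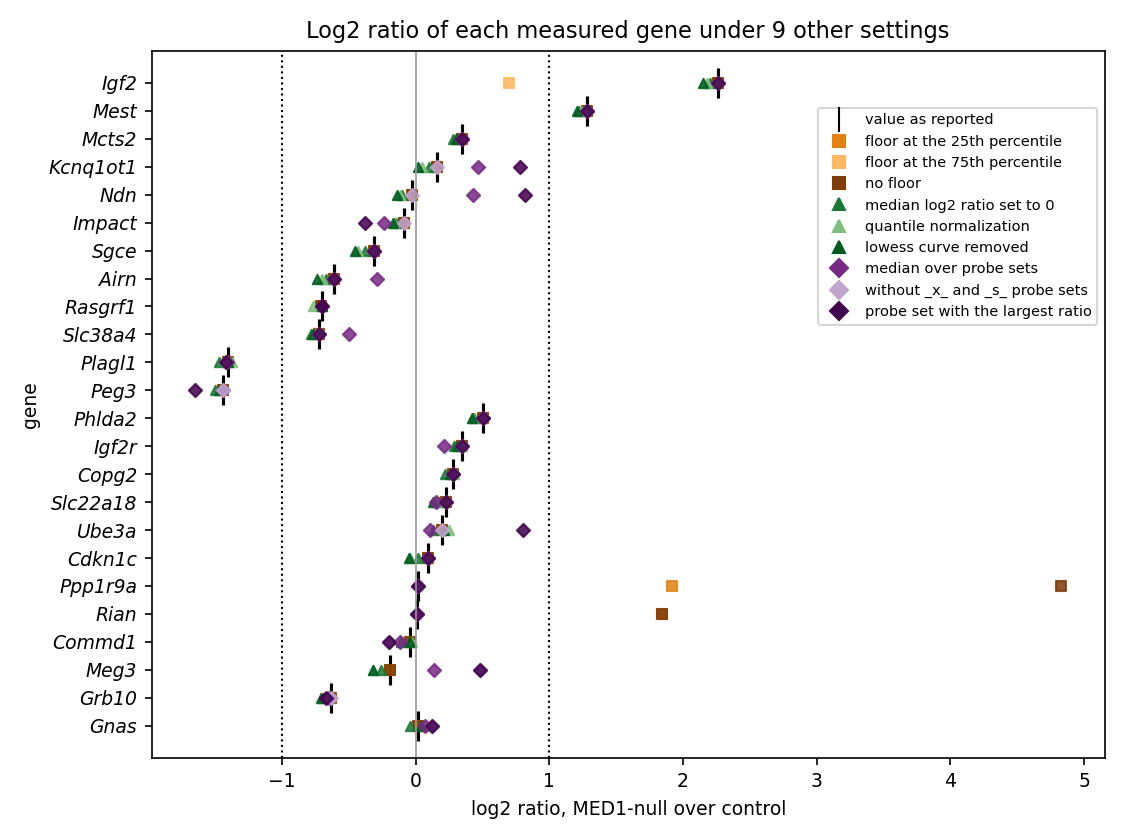
Log2 ratio of each measured imprinted gene as reported (black bar) and under 9 other settings of floor (squares), scaling (triangles) and probe set (diamonds), with dotted lines at 2-fold. Mest, Peg3 and Plagl1 stay beyond 2-fold under all 9, Igf2 under 8 with 0.70 at the highest floor, and Rian and Ppp1r9a move with the floor. By the probe set used, Mest, Peg3 and Plagl1 read above every floor tried, so no floor could change them. Mest has 1 probe set and Igf2 1 above the floor, so the choice of probe set could change neither.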

How the data were processed

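Each sample, 1 Affymetrix mouse array, was grouped by the genotype in its labels. The values the authors deposited were linear signal intensities made by MAS5 (per the submitters' processing notes) in GeneChip Operating Software (per the labels' design text); its version is not given in the sources used here. MAS5 subtracts mismatch signal, which makes low values noisy.

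Of 45101 probe sets, 64 were controls, 34945 had 1 symbol in GEO's platform annotation, 932 several and 9160 none. Entrez IDs of 34741 matched RefSeq (GRCm38.p6), and 0 symbols changed. Each gene took its probe set of highest mean signal. Values under the pooled median, 67.7, were raised to it. The threshold was 2-fold. Genes under the floor on 1 array have a bound ("at least"), so those counted within 2-fold may lie beyond it. The number of arrays limits precision. Genes and lists were chosen with earlier results of these data known; beyond the 40 genes, up to 4 per list with the largest ratios in either direction were named, with Med1 and sex-linked genes as checks. Further cell type markers (Krt5, Krt14, Col1a1, Col6a3, Lum, Tyr, Sox10, Adipoq and Lep) were named for their role after their values were seen. Counting was tested on simulated data with large changes in genes of high signal only, which does not check calls near 2-fold or near the floor. Floor, scaling, probe set and threshold were varied. Python 3.11.15, pandas 2.3.3 and statsmodels 0.14.6 were used.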

Additional observations from a re-analysis of the deposited data

Results flagged for a closer look

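Some probe sets were left out because their annotation lists several genes, of which at least 1 is on the imprinted list. Of 8 such probe sets, 5 reached the floor. Those at the floor whose signal was above the control array were set apart for a closer look. The probe set annotated to both H19, a maternally expressed non-coding RNA, and Mir675, the microRNA it hosts, read 200.5 in the control culture and 343.9 in the culture labelled MED1-null, a log2 ratio of 0.78 (1.72-fold higher). A probe set annotated to both Snurf and Snrpn read 1665.4 and 1719.2, and another 1250.7 and 1315.3, ratios of 1.03-fold and 1.05-fold. The other probe sets of that annotation above the floor read lower, at 557.2 and 373.0, and 605.5 and 559.8. The annotation gives none of them a single symbol, so none was analysed as a gene.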

How the results depend on the processing

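With 1 array per group no sample could be left out. No paired analysis was possible because the labels give no replicate numbers and each group has 1 array. The count of 4 of 24 imprinted genes beyond 2-fold was 3 of 14 (21.4%) when the floor was the 75th percentile (434.6). It was 4 under all 3 rescalings and all 3 other choices of probe set. Igf2 and Mest each had 1 probe set above the floor, so the choice of probe set could not change their calls. A floor at the 25th percentile gave 8 of 33 (6 higher, 2 lower) and no floor 12 of 38 (7 higher, 5 lower). A threshold of 1.5-fold gave 8 of 24 and one of 3-fold 1 of 24. These shares are 24.2%, 31.6%, 33.3% and 4.17% in turn. Beside them stand 12.8%, 22.7%, 15.1% and 0.869% of all measured genes, and the list was chosen with ratios known. Over all genes the 449 became 2054, 4137, 1758 and 101 under these 4 settings in turn. It became 155 (2.22%) with the floor at the 75th percentile and 692 (5.95%) with the probe set of the largest ratio. The split of 190 higher and 259 lower became 143 and 314 after a lowess curve was removed. Medians of the other imprinted genes, the imprint regulators, the IGF axis, the neighbours and the keratinocyte and melanocyte markers kept their sign under all 9 other settings. Class medians moved by less than 0.31, but that is the spread between probe sets of a gene and does not measure the spread of a median. The paternal median changed sign at both lower floors, from -0.20 as reported to 0.09 with no floor. Of 199 values of single imprinted genes, 185 moved by less than that spread and 14 by more. Reversal was counted only for genes at least 2-fold apart as reported, Igf2, Mest, Peg3 and Plagl1, and 0 of their values reversed. A floor cannot reverse a ratio, nor could the choice of probe set for Igf2 and Mest. Among genes closer together, Ndn went from -0.03 to as much as 0.82 and Meg3 from -0.19 to 0.48. Cdkn1c and Gnas also changed sign under some settings. Low signal limits the set, with 14 of 38 genes below the floor, as does the single array per group.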
